A study of Octopus bimaculoides with 6 samples.

Results

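Of the 38556 coding transcripts quantified in *Octopus bimaculoides*, 23 stood at a moderate to high level in every arm library of adult animals and at least 4-fold lower in the hatchling. The transcripts were chosen by their measured levels. A transcript was taken where it had at least 10 TPM, a level per transcript length that sums to the same total in every library, in each of 5 arm libraries, where TPM + 1 in each of them was at least 4 times TPM + 1 in the hatchling, and where the largest TPM + 1 among the arm libraries was under 3 times the smallest. Because these levels made the choice, the arm and hatchling values below are a description and carry no test. The level limit was met by 4037 coding transcripts, of which 35 (0.867%) also met the 4-fold limit. With the evenness limit, 2996 transcripts remained, of which 23 (0.768%) met the 4-fold limit. Across all 40327 targets, which include 1771 non-coding RNAs, the 23 are a small set.

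The arm samples were transverse sections of arm L1 of 1 adult male, OB-5, taken 1.5 cm (distal), 3.5 cm (medial) and 5.5 cm (proximal) from the tip, and the tips of arm L1 of a second male, OB-2, and of a female, OB-9, each taken up to 1.5 cm from the end. The hatchling was a whole body at 30 days post-fertilization (dpf). All adults were wild-caught and none of the 6 samples was treated. Each condition was 1 library, so there was no replicate and no test between conditions, and the 3 sections share an animal. The hatchling differs from the arm in stage, in animal and in tissue, and these cannot be told apart here.

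The octopus arm is a muscular hydrostat, a column of densely packed muscle around an axial nerve cord, with suckers that carry sensory receptors and a skin with pigment cells. A whole hatchling holds arms too, together with brain, eyes, gills and viscera, so the level of a transcript in it is a share of the RNA of the whole body. In bulk RNA, fewer cells of a type and less RNA per cell cannot be told apart.

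The depth of the libraries, as the sum of estimated counts, was between 3161353 and 6524632 in the arm libraries and 9081923 in the hatchling. Non-coding RNAs took 39.8% to 63.5% of the TPM in the arm libraries and 63.4% in the hatchling. Among the named transcripts, 6 carried the name of a nerve marker (complexin and synaptotagmins, proteins of synaptic vesicle release). Together they had 330.1, 197 and 166 TPM along the arm (distal, medial and proximal sections) and 151 and 144 TPM in the male and female tips, against 161 TPM in the hatchling, so nerve transcripts were present in all libraries. No transcript of the available annotation carried the name of a defining muscle, eye or visceral marker, and the samples were not checked for those cells.

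Summed over the 23 transcripts, the level was 1307, 2162 and 1780 TPM in the distal, the medial and the proximal section and 1381 and 1463 TPM in the male and female tips, against 168 TPM in the hatchling. As a share of all coding TPM, this was 0.338% to 0.401% in the arm libraries and 0.0458% in the hatchling. The median log2 ratio of the mean arm level to the hatchling level, on TPM + 1, was 3.01 over the 23 transcripts, with a range of 2.29 to 4.77. Over the other 2973 even arm transcripts, which met the level and evenness limits only, that median was 0.78 on the deposited TPM and 0.18 after scaling the libraries by trimmed mean of M values (TMM) factors. Those transcripts had to reach 10 TPM in the arm and not in the hatchling. With a limit of 1 TPM that the hatchling or an arm library could meet, the median over coding transcripts was 0.50. After TMM scaling it was 0.09. The part of the arm limit in the ratio of the even arm transcripts was not tested.

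**Figure D1:**
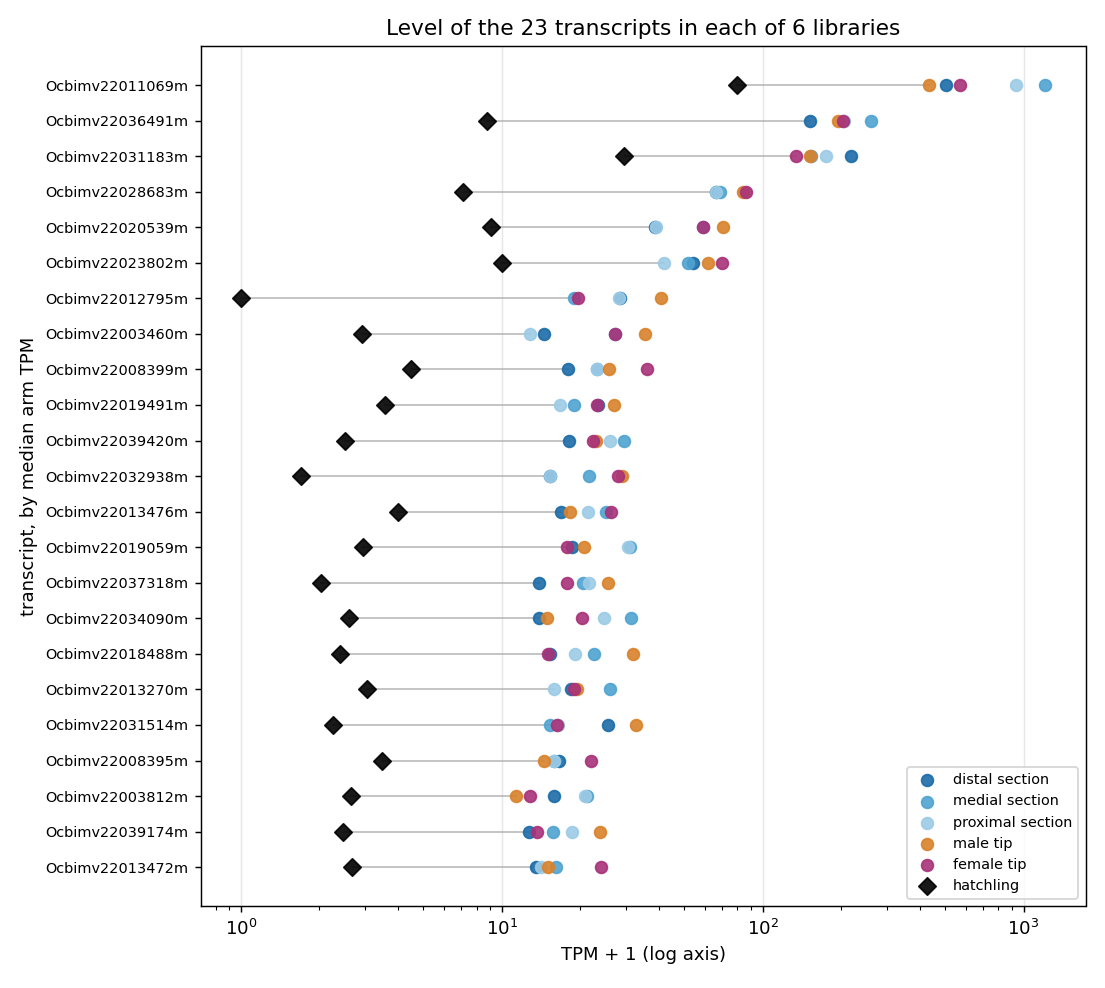
Level of each of the 23 transcripts as TPM + 1 on a log axis, with 1 point for each of 5 arm libraries and a diamond for the hatchling, in order of the median arm level. For every transcript the diamond lies left of all 5 arm points, and 3 transcripts lie above 100 TPM in every arm library.

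Abundance differed widely among the 23. In 17 of the 23, the median arm level was under 30 TPM, and 6 were above this. The median of the 23 median arm levels was 20.6 TPM, against 24.6 TPM for the other even arm transcripts. The hatchling level was 10 TPM or more for 2 of the 23 and under 2 TPM for 12. By its rank among coding transcripts, the middle member stood between 2143 and 3715 in the arm libraries and at 16877 in the hatchling.

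The most abundant 3 transcripts made up most of the summed level. The most abundant was Ocbimv22011069m, a transcript of 1778 bases with no name in the annotation. It had 502, 1211 and 934 TPM along the arm (distal, medial and proximal sections) and 434 and 572 TPM in the male and female tips, against 78.7 TPM in the hatchling. It stood between rank 40 and rank 79 of the coding transcripts in the arm libraries and at rank 622 in the hatchling, and its medial and proximal levels were above the other 3 arm libraries. On the deposited TPM it was also the least even of the 23, with a largest TPM + 1 of 2.79 times the smallest among the arm libraries. Under TMM scaling this was 2.33 times, against 2.92 times for Ocbimv22003460m.

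Next was Ocbimv22036491m, of 1856 bases, which is listed in the study's expression cluster 8 and has no name. It had 151, 259 and 204 TPM in the distal, the medial and the proximal section and 193 and 202 TPM in the male and female tips, against 7.77 TPM in the hatchling. Among members with any hatchling reads it had the largest ratio, with a mean arm level 23.1-fold above the hatchling on TPM + 1. It rests on 1553 to 3886 estimated counts in the arm libraries and 263 in the hatchling, and its ranks were 167 to 337 in the arm libraries and 6322 in the hatchling.

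The third, Ocbimv22031183m (1986 bases), is the single member with a protein name in the part of the annotation used here. Its best match was human perilipin-4, with an apolipoprotein domain. Perilipins are proteins that coat lipid droplets in vertebrate cells and regulate the release of stored fat, and perilipin-4 is known from fat tissue and muscle of mammals. It had 216, 152 and 174 TPM along the arm (distal, medial and proximal sections) and 151 and 133 TPM in the male and female tips, against 28.4 TPM in the hatchling. Both tips lay below all 3 sections on the deposited TPM. There the largest TPM + 1 among the arm libraries was 1.62 times the smallest, against 2.33 times without non-coding RNAs. The order of the arm libraries was not compared under that scaling. The hatchling value rests on 1332 estimated counts, with an exact 95% Poisson interval of 26.9 to 30.0 TPM. Intervals of this kind cover counting error only, since PCR copies were not marked and other animals were not sampled.

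**Figure D2:**
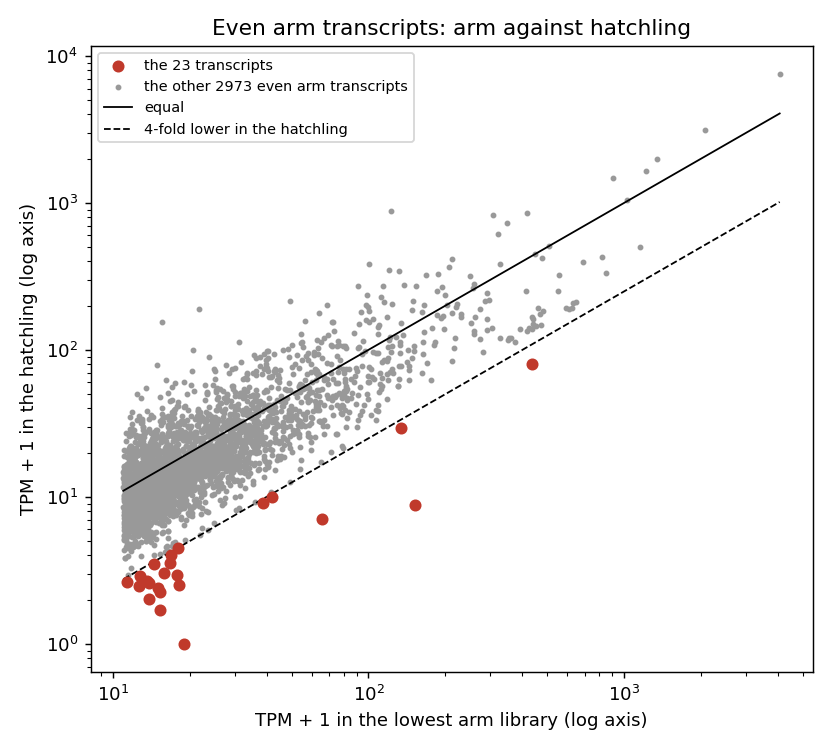
TPM + 1 in the hatchling against TPM + 1 in the lowest arm library, on log axes, for the 23 transcripts (large points) and the other 2973 even arm transcripts (small points), with lines for equal levels and for a hatchling level 4-fold lower. Most of the 23 lie close below the 4-fold line, and Ocbimv22036491m and Ocbimv22012795m lie farthest from it.

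A group of 3 members of intermediate level had between 37.6 and 85.3 TPM in the arm libraries. Ocbimv22028683m (729 bases) had 65.1, 67.7 and 65.0 TPM in the distal, the medial and the proximal section and 82.8 and 85.3 TPM in the male and female tips, against 6.10 TPM in the hatchling. On the deposited TPM, which includes non-coding RNAs, this was the most even of the 23. Its largest TPM + 1 among the arm libraries was 1.31 times the smallest, and both tips lay above all 3 sections. Whether it was the most even under another scaling was not compared. Ocbimv22020539m (258 bases) had 37.6, 57.9 and 38.1 TPM in the sections and 69.3 and 58.1 TPM in the tips, in the same order, against 8.05 TPM in the hatchling. Ocbimv22023802m (198 bases) had 53.1, 50.7 and 40.8 TPM in the sections and 60.6 and 68.7 TPM in the tips, against 9.03 TPM in the hatchling. In both short transcripts the tips were again above the sections, in Ocbimv22020539m by a narrow margin, but the hatchling level rested on 16.9 estimated counts for Ocbimv22020539m and 9.9 for Ocbimv22023802m.

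Short transcripts were measured less firmly. The members had a median length of 774 bases with quartiles of 246 and 1572 bases, against a median of 975 and quartiles of 417 and 2213 bases for the other even arm transcripts. The median length of the transcripts that met the rule depended on its settings. It was 1254 bases at a minimum of 20 TPM (6 transcripts), 474 bases without non-coding RNAs (38) and 282 bases under TMM scaling (11). The length of the other even arm transcripts was not compared at these settings. Of the 23, 8 (34.8%) were shorter than 300 bases, against 458 (15.4%) of the others. The rule did not use length, but the short members held few reads, and the part of read number in this difference was not tested.

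In the 8 short members, 4.2 to 24.4 estimated counts stood behind the distal level and 0 to 16.9 behind the hatchling level. For the shortest, Ocbimv22031514m (177 bases), 1 estimated count was worth 4.08 TPM in the distal section and 1.24 TPM in the hatchling. It had 24.5, 14.3 and 15.5 TPM along the arm (distal, medial and proximal sections) and 31.6 and 15.2 TPM in the male and female tips, which is 6, 4, 5, 12 and 6 estimated counts, against 1.24 TPM or 1 estimated count in the hatchling. The exact 95% interval of the hatchling level was 0.0315 to 6.93 TPM.

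To set the ratios against counting error, the lowest of the lower 95% limits of the arm libraries was compared with the upper 95% limit of the hatchling. At these limits 6 of the 23 had an arm level more than 4-fold above the hatchling, 16 more than 2-fold and 20 above it at all. The same reads chose the members, which these limits do not allow for, so the tally is a description only. The 6 were Ocbimv22036491m (14.8-fold), Ocbimv22028683m (6.76-fold), Ocbimv22011069m (5.13-fold), Ocbimv22032938m (4.90-fold), Ocbimv22039174m (4.27-fold) and Ocbimv22031183m (4.18-fold). All 15 members of at least 300 bases stayed above 2-fold, against 1 of the 8 short ones. For 3 short members, Ocbimv22031514m, Ocbimv22037318m and Ocbimv22034090m, the limits crossed, at 1, 1.1 and 2 estimated counts in the hatchling. Crossing limits are not a test of whether the hatchling level was lower.

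**Figure D3:**
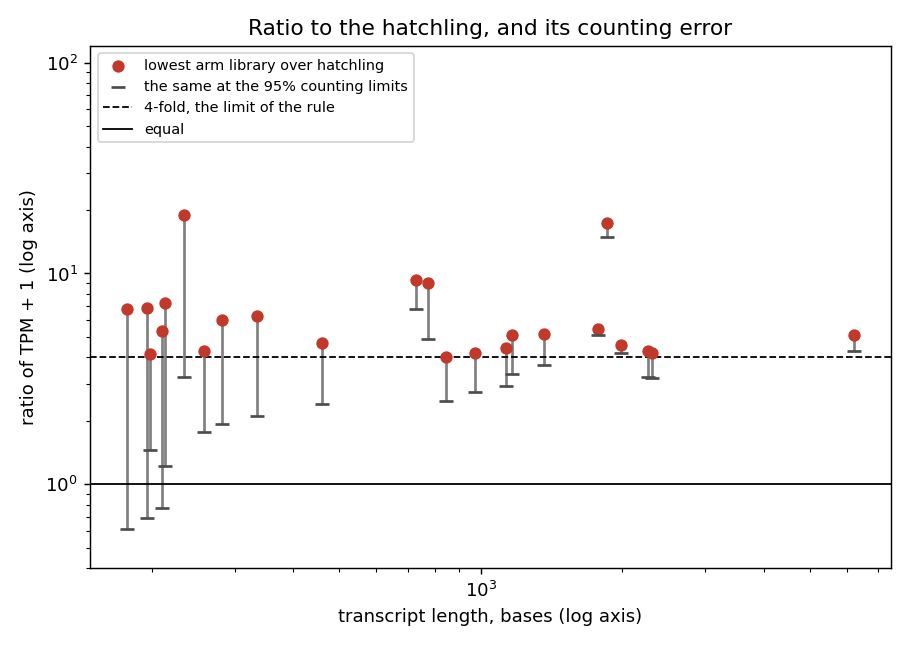
Ratio of TPM + 1 in the lowest arm library to the hatchling (points) against transcript length in bases, both on log axes, for the 23 transcripts, with a bar down to the ratio at the exact 95% counting limits. The bars are long below 300 bases, where 3 of them reach below equality, and short for the long transcripts.

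Transcripts with the largest ratios were mostly of low abundance, as were the 23 as a whole (17 under 30 TPM in median arm level). Ocbimv22036491m and Ocbimv22028683m, described above, were more abundant and also had large ratios. With a pseudocount of 1, the largest belonged to Ocbimv22012795m (234 bases), with 27.5, 18.0 and 27.2 TPM in the distal, the medial and the proximal section and 39.7 and 18.6 TPM in the male and female tips, against 0 TPM in the hatchling. With no hatchling count, that ratio is set by the pseudocount. The exact 95% upper limit of the hatchling level was 2.21 TPM, and at the counting limits the ratio was 3.22-fold, below that of 9 other members. Its arm levels rest on 10.6 to 32.1 estimated counts.

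Ocbimv22032938m (774 bases) had 14.3, 20.6 and 14.3 TPM along the arm (distal, medial and proximal sections) and 27.9 and 26.8 TPM in the male and female tips, against 0.693 TPM in the hatchling. Both tips were above all sections, and its mean arm level was 12.9-fold above the hatchling on TPM + 1. It is the lowest in the hatchling of the 15 longer members, with 8.6 estimated counts there against 54.4 to 168 in the arm libraries.

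A further 5 members stood between 12.9 and 30.8 TPM in the arm libraries and had at most 5 estimated counts in the hatchling. Ocbimv22039420m (213 bases) had 17.1, 28.4 and 25.0 TPM in the distal, the medial and the proximal section and 22.0 and 21.4 TPM in the male and female tips, against 1.51 TPM in the hatchling. Ocbimv22037318m (195 bases) had 12.9, 19.5 and 20.5 TPM in the sections and 24.6 and 16.9 TPM in the tips, against 1.02 TPM in the hatchling. Neither separated tips from sections, and the hatchling levels rest on 2 and 1.1 estimated counts. For Ocbimv22034090m (210 bases), the values were 12.9, 30.4 and 23.7 TPM in the sections and 13.9 and 19.4 TPM in the tips, against 1.60 TPM in the hatchling. For Ocbimv22019059m (282 bases), they were 17.6, 30.0 and 29.5 TPM in the sections and 19.6 and 16.8 TPM in the tips, against 1.95 TPM in the hatchling. In both, the medial and proximal sections were the highest libraries. Ocbimv22018488m (335 bases) had 14.3, 21.6 and 18.1 TPM in the sections and 30.8 and 14.0 TPM in the tips, against 1.40 TPM in the hatchling, and the male tip stood alone at the top.

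At the other end, some members only just met a limit. Ocbimv22008399m met the 4-fold limit at 4.02-fold and Ocbimv22023802m at 4.16-fold, while Ocbimv22002102m (3.98-fold) and Ocbimv22019490m (3.97-fold) fell just outside. The 10 TPM limit was closest for Ocbimv22003812m, with 10.4 TPM in its lowest arm library, and Ocbimv22039174m, with 11.7 TPM, and just outside stood Ocbimv22028262m with 8.17 TPM and Ocbimv22021867m with 7.83 TPM. In evenness, Ocbimv22011069m (2.79) and Ocbimv22003460m (2.75) were the last inside, and Ocbimv22022260m (3.45) and Ocbimv22032771m (3.56) the first outside.

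Ocbimv22039174m and Ocbimv22003812m are long and rest on many reads. The longest of the 23 is Ocbimv22039174m at 6216 bases, and it had 11.7, 14.8 and 17.6 TPM along the arm (distal, medial and proximal sections) and 22.8 and 12.7 TPM in the male and female tips, against 1.47 TPM in the hatchling. Ocbimv22003812m (2272 bases) had 14.8, 20.2 and 19.8 TPM in the sections and 10.4 and 11.8 TPM in the tips, against 1.64 TPM in the hatchling, with both tips below all sections. Also near a limit, Ocbimv22003460m (1134 bases), had 13.5, 26.2 and 11.8 TPM in the sections and 34.3 and 26.2 TPM in the tips, against 1.91 TPM in the hatchling, and its arm libraries spread widely.

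Within the arm, the members did not share 1 pattern. Both tips were above all 3 sections in 5 of the 23 (21.7%), against 618 (20.8%) of the other 2973, so this share was near the background. Both tips were below all sections in 2 (8.70%), against 826 (27.8%) of the others. The highest library was the male tip for 9 members, the medial section for 7, the female tip for 6, the distal section for 1 and the proximal section for 0. These were 39.1%, 30.4%, 26.1%, 4.35% and 0% of the members. Among the other even arm transcripts the shares were 18.8%, 36.5%, 18.5%, 7.90% and 18.3%, in the same order. The tips come from other animals than the sections, so place along the arm and animal cannot be told apart. All orders of the arm libraries in this report are on the deposited TPM, which includes non-coding RNAs. These took 63.4%, 39.8% and 47.3% of the TPM in the distal, the medial and the proximal section. In the male and female tips they took 61.6% and 63.5%. The orders were not compared under another scaling.

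Several members stood beside other transcripts that were low in the hatchling in the numbering of transcripts. This was seen in the data and then described. No member had a number next to that of another, and the closest pairs were 4 apart. In what follows a neighbour is a transcript whose number differs by 1, is itself none of the 23 and had at least 1 TPM in any library. Of 38 such neighbours, 15 (39.5%) had a mean arm level at least 2-fold above the hatchling on TPM + 1, against 1168 of 4637 (25.2%) neighbours of the other even arm transcripts and 20.3% of all coding transcripts that reached 1 TPM in any library. At least 4-fold were 7 (18.4%), against 100 (2.16%) of the neighbours of the others. At a distance of 10 numbers, 0 of 37 were at least 4-fold higher in the arm, against 2.16% for the others. Of the 7, 3 lie in a single run, so they are not separate cases. Transcripts with close numbers can come from the same or adjoining genes, and a read that fits more than 1 target is shared out by Kallisto. Whether these neighbours share sequence was not tested.

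**Figure D4:**
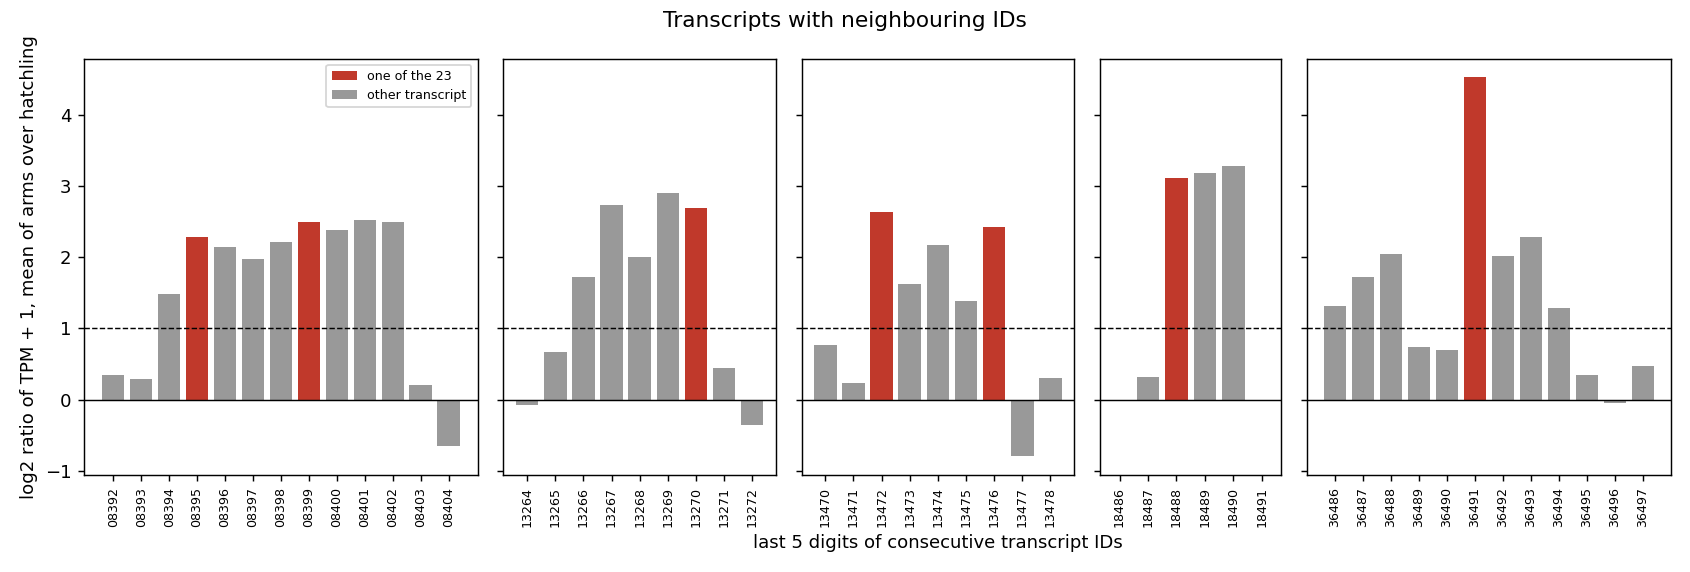
Log2 ratio of TPM + 1, mean of the 5 arm libraries over the hatchling, for transcripts with consecutive numbers around 6 of the 23 in 4 runs and around Ocbimv22036491m, with the members in red. The dashed line is 2-fold. In the first panel all 9 transcripts from Ocbimv22008394m to Ocbimv22008402m lie between 1.49 and 2.53, and the transcripts before and after lie at or under 0.35.

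The longest run held 9 transcripts, Ocbimv22008394m to Ocbimv22008402m, listed in 9 successive places of the files, and 2 of them are members. Their log2 ratios of the mean arm level to the hatchling were 1.49 to 2.53, with a median of 2.29. Together the 9 had 203, 279 and 272 TPM in the distal, the medial and the proximal section and 193 and 265 TPM in the male and female tips, against 43.2 TPM in the hatchling. The member Ocbimv22008399m (843 bases) had 17.0, 22.1 and 22.2 TPM in the sections and 24.8 and 35.0 TPM in the tips, against 3.48 TPM in the hatchling. The member Ocbimv22008395m (2314 bases) had 15.6, 14.8 and 14.8 TPM in the sections and 13.5 and 21.1 TPM in the tips, against 2.48 TPM in the hatchling. The female tip was the highest library for both. Outside the run, Ocbimv22008393m and Ocbimv22008403m had log2 ratios of 0.29 and 0.21.

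A run of 5 held Ocbimv22013472m and Ocbimv22013476m at its ends, with log2 ratios of 1.39 to 2.64. Ocbimv22013472m (1168 bases) had 12.6, 15.2 and 13.1 TPM along the arm (distal, medial and proximal sections) and 14.0 and 23.1 TPM in the male and female tips, against 1.66 TPM in the hatchling. Ocbimv22013476m (972 bases) had 15.8, 24.1 and 20.5 TPM in the sections and 17.2 and 25.2 TPM in the tips, against 3.02 TPM in the hatchling. The female tip was the highest library here too, and both members are listed in expression cluster 7. The 3 transcripts between them were also lower in the hatchling, with log2 ratios of 1.63, 2.17 and 1.39, but stood at 11.3 TPM or less in every arm library.

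A second run of 5, Ocbimv22013266m to Ocbimv22013270m, held 2 abundant transcripts that met neither the 4-fold nor the evenness limit. Its member Ocbimv22013270m (1365 bases) had 17.5, 25.0 and 14.8 TPM in the distal, the medial and the proximal section and 18.5 and 17.9 TPM in the male and female tips, against 2.05 TPM in the hatchling. Beside it, Ocbimv22013269m had 293, 705 and 517 TPM in the sections and 134 and 148 TPM in the tips, against 47.3 TPM in the hatchling. Ocbimv22013267m had 559, 1086 and 877 TPM in the sections and 261 and 345 TPM in the tips, against 93.0 TPM in the hatchling. In these abundant neighbours all 3 sections were above both tips, a pattern that the member did not show.

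Of the 13 members in a run of 2 or more, 8 lay in runs of 2 to 4, and 3 of these are described here. Ocbimv22018488m, Ocbimv22018489m and Ocbimv22018490m had log2 ratios of 3.11, 3.18 and 3.28, and together 50.1, 90.6 and 65.8 TPM along the arm (distal, medial and proximal sections) and 60.0 and 29.4 TPM in the male and female tips, against 3.86 TPM in the hatchling. Ocbimv22019491m (459 bases) had 22.3, 17.9 and 15.7 TPM in the sections and 25.9 and 22.1 TPM in the tips, against 2.57 TPM in the hatchling. Its neighbour Ocbimv22019490m had a log2 ratio of 2.22. The 3 transcripts after Ocbimv22036491m had log2 ratios of 2.02, 2.28 and 1.29, yet in the male tip they had 6.15, 0 and 1.28 TPM, where Ocbimv22036491m had 193 TPM. Taken as a whole, 8 of the 23 (34.8%) lay in a run of 3 or more consecutive numbers that were each at least 2-fold above the hatchling, against 281 (27.3%) of 1031 other even arm transcripts that were themselves at least 2-fold above it, so runs of this kind were common among arm transcripts.

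Neighbours with a name were few. Ocbimv22031184m, next to the perilipin-4-like member, is named for the redox-regulatory protein FAM213A and had 273, 221 and 180 TPM in the distal, the medial and the proximal section and 97.1 and 93.2 TPM in the male and female tips, against 92.5 TPM in the hatchling. Ocbimv22039175m, next to Ocbimv22039174m, is named for uridine 5'-monophosphate synthase, an enzyme of pyrimidine synthesis, and had a log2 ratio of -0.19. One neighbour went clearly the other way. Ocbimv22003813m, next to Ocbimv22003812m, had 0.302, 0.425 and 0 TPM in the sections and 0.382 and 0.192 TPM in the tips, against 4.83 TPM in the hatchling.

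The members with a listed DNA methylation pattern fell in all 4 patterns. The study sorted transcripts by CpG methylation in an adult brain sample into these patterns. Pattern 1 is methylated over gene body and promoter, pattern 2 over the gene body but not at the start site, pattern 3 toward the end of the gene, and pattern 4 is the largely unmethylated class. In the part of that list used here, 5 of the 23 had a pattern. Ocbimv22013270m was in pattern 1, Ocbimv22008399m in pattern 2, Ocbimv22008395m and Ocbimv22003460m in pattern 3 and Ocbimv22003812m in pattern 4. Only 2 members, Ocbimv22003460m and Ocbimv22003812m, had numbers in the block where all 4 lists were complete, so 1 of 2 (50.0%) was in pattern 4, against 103 of 346 (29.8%) of the other even arm transcripts. With 2 members this share says nothing about the set.

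In the study's grouping of transcripts by their profile across tissues, which used the sections and the hatchling too and so is not independent of these levels, 8 of the 23 were found in the part of the list used here. Of these, 3 were in cluster 4 (Ocbimv22020539m, Ocbimv22003460m and Ocbimv22031514m), 2 each in cluster 7 and cluster 8, and 1 in cluster 3. The paper describes cluster 4 as enriched for arm and hatchling expression, while these 3 were chosen as low in the hatchling. Cluster 4 and cluster 8, whose lists were shortened, also held the most of the other even arm transcripts that were found, with 251 and 231 of 1140. Clusters 1, 3 and 7 were complete in that list and held 0, 1 and 2 of the 23, against 95, 87 and 33 of the other 2973. The 2 in cluster 7, Ocbimv22013472m and Ocbimv22013476m, lie in the same run of consecutive numbers, so they are not separate cases.

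Gene lists by protein name held almost none of the set, with names at hand for 414 transcripts only. Of these 414, 57 met the 10 TPM limit in every arm library, 1 was at least 4-fold above the hatchling in each of them (the perilipin-4-like transcript) and 5 were at least 4-fold higher in the hatchling than in every arm library. None of the members was among the 6 named contractile, 9 nerve, 3 ribosomal, 12 protein quality control or 17 zinc finger transcripts. Of these lists 1, 5, 3, 4 and 0 transcripts met the 10 TPM limit, in the same order. Of all coding transcripts at that level, 0.867% were at least 4-fold above the hatchling in every arm library. Absence from lists this small, also from the list that follows, is near that share. Among the 6 contractile names, 2 were at least 4-fold higher in the hatchling than in every arm library and 0 at least 4-fold lower. Summed, these 6 had 38.2 to 59.0 TPM in the arm libraries, against 99.0 TPM in the hatchling. None of the 23 was among the 150 transcripts that the study lists as writers, erasers or related factors of DNA methylation, histone methylation and histone acetylation. Of these 150, 27 met the 10 TPM limit, and the largest ratio of the lowest arm library to the hatchling was 2.89-fold, for Ocbimv22010145m (SETMAR.7), a relative of the SETMAR histone methyltransferase, which had 27.2, 30.6 and 32.7 TPM along the arm (distal, medial and proximal sections) and 22.1 and 25.1 TPM in the male and female tips, against 7.01 TPM in the hatchling.

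Set against the opposite direction at 4-fold, the class was small, but the level limits were unlike. Of 4037 coding transcripts with at least 10 TPM in each of 5 arm libraries, 35 (0.867%) were at least 4-fold above the hatchling in every one. Of 5021 with at least 10 TPM in the hatchling, 249 (4.96%) were at least 4-fold above every arm library. With a shared limit of 1 TPM in any library, 6148 of 30226 (20.3%) had a mean arm level at least 2-fold above the hatchling. The hatchling was at least 2-fold above the mean arm level for 1267 (4.19%). The split at 4-fold moved with scaling. With TMM factors the 2 counts at 4-fold were 17 and 386, and with non-coding RNAs left out of the TPM they were 58 and 448.

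The number of members moved likewise. Under TMM scaling 11 coding transcripts met the rule, of which 10 were among the 23, and without non-coding RNAs 38 did, of which 14 were. Both scalings kept 8 of the 23. Ocbimv22031183m met the rule under neither, with its lowest arm library 2.89-fold above the hatchling under TMM scaling and 3.24-fold without non-coding RNAs, and Ocbimv22011069m was at 3.72-fold under TMM scaling.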

How the data were processed

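Ribosomal RNA was depleted by the authors, who sequenced paired-end libraries, checked reads with FastQC 0.11.5, trimmed them with Trimmomatic 0.36 and quantified them with Kallisto, with an extra Fastp step against poly-G in the hatchling reads. The deposited files give an estimated count, made by the authors' Kallisto run by dividing reads among matching targets, with a length and an effective length. The deposited TPM of each target is the authors' value, scaled per library over coding and non-coding targets. Other quantities were computed here with Python 3.11.15 and SciPy 1.17.1. Ratios used TPM + 1. Intervals are exact 95% Poisson limits of the rounded estimated count, and TMM factors came from edgeR 4.0.16 on rounded counts. No test between conditions was run, since each of 6 conditions was 1 library. Names, methylation patterns and clusters came from shortened copies of the study's lists. The transcripts, the rule and the gene lists were chosen with earlier results of these data known. The text names the 8 members of highest median arm level, the 8 of largest lowest-arm ratio, members with a name and transcripts beside each limit. The remaining members, the runs and the neighbours were named after their values were seen. Transcript sequences and coordinates were not used here.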

Additional observations from a re-analysis of the deposited data

How the results depend on the processing

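The number of coding transcripts that met the rule was 23. It was 45 with a pseudocount of 0.1, 49 at a minimum of 1 TPM, 6 at a minimum of 20 TPM, 15 with at least 20 estimated counts in each arm library, 69 at 3-fold, 4 at 8-fold, 35 with no evenness limit, 11 under TMM scaling and 38 without non-coding RNAs, and it stayed within 1.5 times at 5 TPM (31) and at an evenness under 2 (16). Leaving out 1 arm library gave 33 to 43, the most without the distal section (43), which is the shallowest, and all 23 met the rule each time, since a library fewer can only relax it. The median log2 ratio was 3.35 with a pseudocount of 0.1, 2.52 under TMM scaling, 2.91 without non-coding RNAs and 2.81 to 3.08 with 1 arm library left out. The shift of the median over all coding transcripts with at least 10 TPM in each arm library was -0.61 under TMM scaling and -0.24 without non-coding RNAs. The median length, 774 bases, was 1254 at 20 TPM, 474 without non-coding RNAs and 282 under TMM scaling. The causes were not tested. For single members, 33 of 184 ratios moved by more than their spread among arm libraries. Of the 23 ratios under each setting, 17 moved under TMM scaling, 15 with the smaller pseudocount and 1 without non-coding RNAs. The rest of the 184 leave out 1 arm library, which can hardly move a mean past the spread of the same libraries. That 0 changed sign says little, since the members were chosen at 4-fold or more. The share in pattern 4 had no value at 8-fold, at 20 TPM or under TMM scaling, where no member lay in the complete block. No paired analysis was possible because each condition is 1 library. Depth limits the members shorter than 300 bases most.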

Other observations

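A further 12 coding transcripts were at least 4-fold above the hatchling in each arm library but differed 3-fold or more among the arm libraries. The most abundant was Ocbimv22024494m (303 bases), with 649, 802 and 2016 TPM in the distal, the medial and the proximal section and 5429 and 2361 TPM in the male and female tips, against 53.4 TPM in the hatchling. Ocbimv22010023m (234 bases) had 153, 74.9 and 275 TPM in the sections and 1624 and 2516 TPM in the tips, against 10.5 TPM in the hatchling. In both, the tips stood above all sections.

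Ocbimv22008161m (204 bases) had 12.0, 36.0 and 99.3 TPM in the sections and 577 and 312 TPM in the tips, against 0 TPM in the hatchling, and was the least even of the 12, at 44.4 times between the highest and the lowest arm library on TPM + 1. Ocbimv22039687m (318 bases) had 31.9, 19.5 and 74.2 TPM in the sections and 378 and 613 TPM in the tips, against 3.74 TPM in the hatchling. The opposite order was clearest in Ocbimv22023265m (537 bases), with 223, 849 and 559 TPM in the sections and 75.8 and 62.8 TPM in the tips, against 1.47 TPM in the hatchling. These levels were not compared by a test, and the tips and the sections come from different animals.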
